A study of Mus musculus with 6 samples.

Results

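The replication-dependent histone genes were followed in LSK cells of BrmKO and WT mice. They are the protein-coding genes of the 4 mouse histone clusters, taken as those whose GENCODE M21 symbol begins with Hist1h, Hist2h, Hist3h or Hist4h, with at least 10 reads summed over the 6 libraries. The annotation lists 67 such genes, and 57 of them reached the minimum, out of 55487 genes in each file. By histone type they are 6 H1, 14 H2A, 14 H2B, 10 H3 and 13 H4 genes. By cluster they are 49 Hist1 genes on chromosome 13, 5 Hist2 genes on chromosome 3, 2 Hist3 genes on chromosome 11 and 1 Hist4 gene on chromosome 6.

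LSK cells are bone marrow cells sorted as negative for lineage markers and positive for c-KIT and SCA1, a fraction enriched in blood stem cells and early progenitors. Polyadenylated RNA was sequenced from cells sorted from 3 Brm-/- mice (BrmKO) and from 3 wild-type mice (WT), all of strain background C56Bl/6 in the labels. The sources used here give neither the age of the mice nor the part of Brm that was removed. Brm is the older name of Smarca2, which encodes one of the alternative motor subunits of SWI/SNF chromatin remodellers, and the comparison asks how its loss bears on gene expression in these cells.

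Replication-dependent histone genes supply the H1 linker and the H2A, H2B, H3 and H4 core histones that package newly copied DNA. Most have no introns, and they lie close together in repeated copies. Their main mRNAs are made in S phase and end just after a conserved stem-loop that is bound by SLBP, in place of a poly(A) tail. A smaller set of polyadenylated histone transcripts, reaching past the stem-loop, is known from differentiated and non-dividing cells. A library made from polyadenylated RNA therefore samples the tailed transcripts of these genes, and its values are not the total histone mRNA of the cell.

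The stem-loops are shown because they mark where the untailed mRNA ends and because those of the H4 genes differ from those of the other types. Of the 57 genes, 43 held a stem-loop of 16 bases in an annotated coding transcript, in 8 distinct forms. The remaining 14 comprised 10 whose annotation stops at the stop codon and 4 with a 3′ UTR but no match. The 3 commonest forms were read from the GENCODE transcripts and are written 5′ to 3′, with both arms of the stem in capitals.
H2A, H2B, H3 and H1 form: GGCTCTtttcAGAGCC
H4 form: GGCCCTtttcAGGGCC
H3, H2B and H1 form with another loop: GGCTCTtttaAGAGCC
The first was carried by 23 genes, of which 8 were H2A, 8 H2B, 4 H3 and 3 H1. The second was carried by 7 genes, all H4. The third was carried by 6 genes, of which 3 were H3, 2 H2B and 1 H1. The annotated transcript ran more than 100 bases past the stem-loop in 22 genes, and 13 had the polyadenylation hexamer AATAAA after it.

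Many of the genes are near copies of each other, which bears on their counts. All 13 H4 genes encode 1 protein, though their coding sequences are only 85.3% to 100% identical between pairs. The 10 H3 genes encode 2 proteins, the 14 H2A genes 6 and the 14 H2B genes 9, while each of the 6 H1 genes encodes its own. Sharing ran from none of the 50-base windows, as in Hist1h1a, Hist1h1b and Hist2h2be, to nearly all. In 26 of the 57 genes more than 50% of all 50-base windows of the transcript also occur in the transcript of another annotated gene. This count takes either strand and includes genes that overlap the same place, as Gm15444 does for Hist2h2ab, so it is not of near copies alone. Reads that align to several places were set apart in the deposited files (4.38% to 5.27% of each library) and are in no gene's count. Counts of genes with near copies elsewhere are therefore uncertain and rest on the bases that differ. The exons of all 14 H2A genes and of 3 others overlap another annotated gene, and the sources used here do not say whether the counting used strand.

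Hist1h4m and Hist1h4n are the only H4 pair with identical coding sequences. Hist1h4m (ENSMUSG00000069306.5) lies on chromosome 13 from 21811746 to 21812147 on the plus strand, and Hist1h4n (ENSMUSG00000069305.3) from 21831767 to 21832196 on the minus strand, in GRCm38. Their annotated transcripts match over 402 bases except at G36A, counted from the 5′ end of the transcript with the base of Hist1h4m first. That base lies in the 5′ UTR, since the first coding base is number 39. Hist1h4n has 28 further bases at its 3′ end. Of the 250 bases upstream of each, 249 are in an identical run, so the promoters carry the same letters too. Positions 21 to 50 are shown, with the differing base in capitals, from the GENCODE M21 transcripts at chr13:21811766-21811795 (plus strand) and chr13:21832147-21832176 (minus strand).
Hist1h4m: tacagttttgtcttcGtcatgtctggtcgt
Hist1h4n: tacagttttgtcttcAtcatgtctggtcgt

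Libraries held 29.18 to 33.29 M reads in genes in BrmKO and 28.01 to 36.46 M in WT. Both libraries numbered 3 stood apart from the rest, with 9.29% (BrmKO) and 8.41% (WT) of reads outside any gene, against 5.79% to 6.61% in the other 4. Smarca2, the targeted gene, stood at 27.1 ± 0.685 CPM (read counts scaled per M reads in genes) in BrmKO and 178.8 ± 31.9 CPM in WT (SD, n = 3 each; edgeR, adjusted p = 2.97e-05). All 8 LSK markers were detected, Kit at 975.3 CPM in BrmKO and 939.6 CPM in WT. Their sums did not overlap, at 2711 to 2805 CPM in BrmKO and 2472 to 2659 CPM in WT. Of the 8, 6 lay above 0 in log2 fold change, 2 lay below, and none was called (edgeR). Summed markers of other cell types overlapped between genotypes for erythroid cells (115.9 to 179.9 CPM in BrmKO, 117.2 to 207 in WT), B cells, T and NK cells, granulocytes and monocytes, and stroma and endothelium. The megakaryocyte markers did not overlap, at 421.5 to 589.4 CPM in BrmKO and 633.1 to 843.2 CPM in WT. The 5 tested ones all lay below 0, and 1 of them, Pf4, was called lower (log2 fold change -0.60 ± 0.09, edgeR, adjusted p = 0.0391). Of the 6 stromal and endothelial markers 5 lay below 0 in log2 fold change. For 3 of them every BrmKO library was lower than every WT library, against 5.36% of all tested genes. Among these 3 was Pdgfra, with 0 reads in each BrmKO library and 27, 19 and 21 in the WT libraries. Col1a1 lay above 0 (1.41 ± 1.68), with 17.7, 2.33 and 58.0 CPM in BrmKO and 26.0, 1.45 and 1.65 CPM in WT. The sum of all 6 had a ratio of 0.52, or 0.20 without both libraries numbered 3. All 5 tested B cell markers lay below 0, with a median log2 fold change of -0.45. Nkg7 gave most of the T and NK sum, at 231.5 of 235.6 CPM in BrmKO and 243.8 of 246.2 CPM in WT. Of the 5 tested T and NK markers 3 lay above 0 and 2 below. Ncr1 was higher in every BrmKO library than in every WT library (2.22 ± 0.55, edgeR, adjusted p = 0.328). The part of these markers in the histone values was not tested.

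Of the 57 genes, 52 had enough reads to be tested. None was called higher in BrmKO and 1 was called lower, Hist1h4m (edgeR quasi-likelihood test, Benjamini-Hochberg adjusted p under 0.05). Over all 15691 genes tested, 22 were called, which is 0.14%, with 0.0829% higher and 0.0574% lower. DESeq2 called 2 histone genes, Hist1h4m and Hist1h4n, against 0.956% of all genes, and limma-voom called Hist1h4m. Most histone genes nonetheless lay above 0 in log2 fold change (BrmKO over WT), 48 of the 52, with a median of 0.40, against 48.8% of all tested genes and a median of -0.01. An unadjusted p under 0.05 with a higher level in BrmKO was found for 10 of the 52 (19.2%), against 3.14% of all genes, and with a lower level for 1, against 2.71% of all genes. The BrmKO values all lay above the WT values for 15 of the 52 (28.8%), against 5.7% of all genes, and all below for 1, against 5.36% of all genes. The genes share sequence and a pathway, so they are not independent of each other. In bulk samples, a different share of cells that express these genes and a different amount of RNA per cell cannot be told apart.

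BrmKO replicate 3 carried much of that shift. It was the highest of the 6 libraries for 36 of the 52 genes (69.2%), against 16.4% of all tested genes. The median deviation from the gene's mean over libraries, in log2, was 0.03, -0.03 and 0.53 in BrmKO replicates 1 to 3 and -0.14, -0.26 and -0.14 in WT replicates 1 to 3. Without BrmKO replicate 3, 42 of 52 genes lay above 0 with a median of 0.20, and 5 (9.62%) had an unadjusted p under 0.05 in that direction, against 3.71% of all genes. Without both libraries numbered 3, 39 lay above 0 with a median of 0.22, and 4 (7.69%) had such a p, against 5.22% of all genes. The share of genes with every BrmKO value above every WT value was 28.8% without BrmKO replicate 3, against 13% of all genes, and 42.3% without both libraries numbered 3, against 20.1% of all genes. The excess of replicate 3 over BrmKO replicates 1 and 2 had a median of 0.67 in the 21 tested genes annotated more than 100 bases past the stem-loop and 0.31 in the other 31. For WT replicate 3 over WT replicates 1 and 2 the medians were 0.14 and 0.13 in the same order. The other 31 include genes with no annotated stem-loop, such as Hist2h2be and Hist1h2bc. Differences between these medians were not tested. Other values moved with both libraries numbered 3. The share of reads outside genes was highest there, and so were the globin genes, Ltf, Ngp and S100a8 among the markers. The neutrophil granule genes Mpo and Elane were not highest in both. Mpo stood at 3280 CPM in BrmKO replicate 3 and 3673 CPM in WT replicate 3, against 3596 to 4459 CPM in the other 4 libraries. Elane stood at 476.3 CPM in BrmKO replicate 3, below the 487.2 CPM of BrmKO replicate 2. Hba-a1, an alpha globin, stood at 39.0 CPM in BrmKO replicate 3 and 36.9 CPM in WT replicate 3, against 11.1 to 18.8 CPM in the other 4 libraries, and Ngp, a neutrophil granule protein, at 6.19 and 6.74 CPM in the same order, against 0.922 to 2.07 CPM. Their part in the histone values was not tested.

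**Figure D1:**
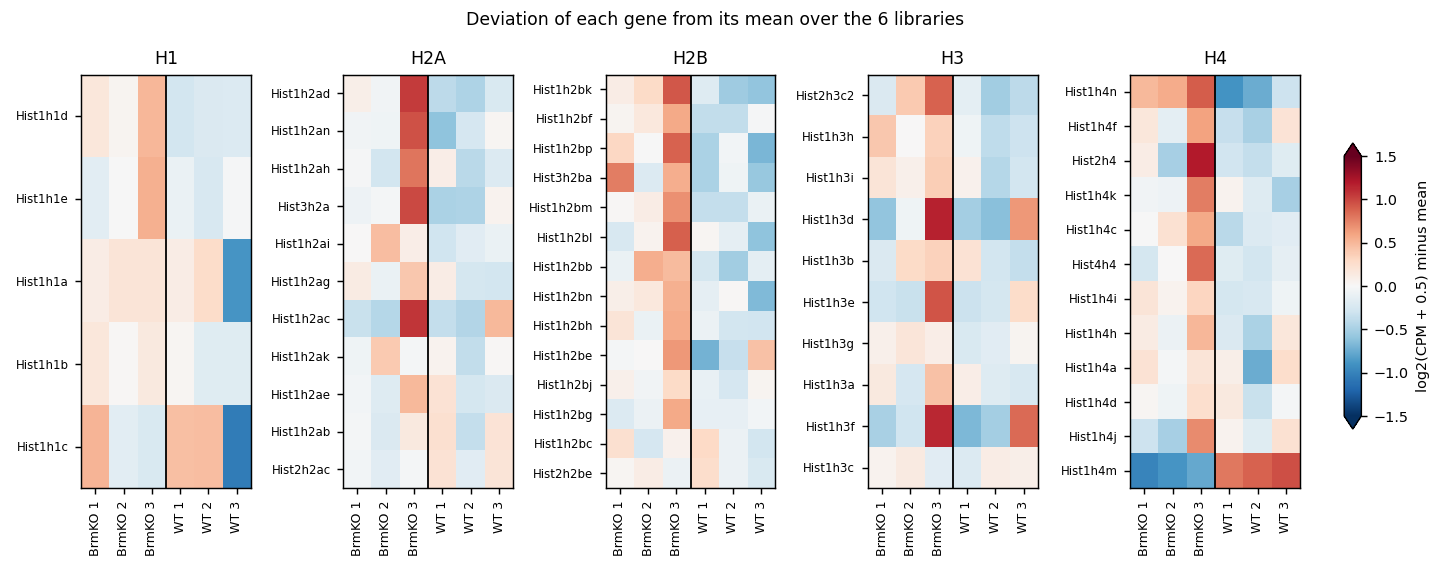
Heat maps of the 52 tested histone genes (rows, a panel per type) in the 3 BrmKO and 3 WT libraries (columns), coloured by log2(CPM + 0.5) minus the gene's mean over the 6 libraries. BrmKO replicate 3 is the highest library for 36 of the 52 genes, and Hist1h4m and Hist1h4n deviate in opposite directions between the genotypes.

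Taking the types whole, the summed level of the H4 genes was the only type sum that did not overlap between genotypes. H4 summed to 112.6, 107.4 and 164.6 CPM in BrmKO and 99.6, 89.8 and 106.1 CPM in WT, a ratio of 1.30, or 1.16 without both libraries numbered 3. BrmKO replicate 2 and WT replicate 3 are only just apart. H2A summed to 207.6 ± 99.4 CPM in BrmKO and 147.2 ± 34.9 CPM in WT, and H2B to 248.8 ± 51.0 and 210.1 ± 10.4 CPM in the same order (SD, n = 3 each). H3 summed to 89.8 ± 44.8 CPM in BrmKO and 69.3 ± 24.2 CPM in WT, and H1 to 242.0 ± 38.5 CPM in BrmKO and 225.2 ± 71.4 CPM in WT. These 4 sums overlapped between the genotypes. All 57 genes together gave 832.8, 750.1 and 1166 CPM in BrmKO, against 779.1, 734.8 and 736.9 CPM in WT. Their ratio was 1.22 with every library and 1.05 without both libraries numbered 3.

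**Figure D2:**
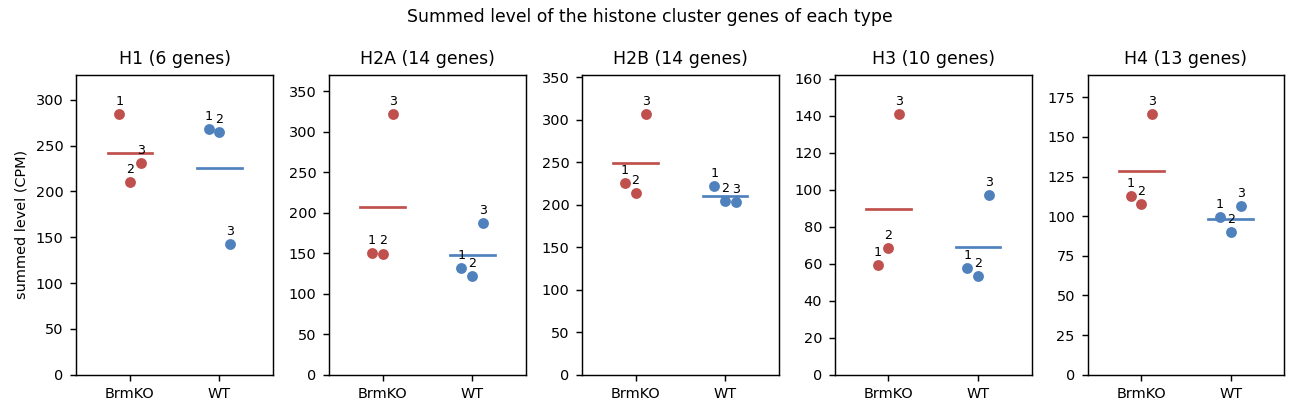
Summed level of the histone genes of each type in CPM, per library (points, numbered by replicate) with the group mean (line), BrmKO left of WT. The H4 sums of the 3 BrmKO libraries lie between 107.4 and 164.6 CPM and all exceed those of the 3 WT libraries, while the other 4 types overlap.

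A few genes gave most of the histone reads. Hist1h1c took 17.3% of the summed CPM of the 57 genes, Hist1h2bg 14.6%, Hist3h2a 11.5% and Hist1h2ac 6.54%, together 50%. At the other end, 5 genes had under 100 reads over all 6 libraries. Just inside the minimum stood Hist2h2ab with 10 reads, Hist1h1t with 13 and Hist1h4b with 16, and just outside it stood Hist1h2af with 9 and Hist1h2bq with 6. Of the 10 annotated genes below the minimum 7 had no read, and for 5 of these 7 the exons lie wholly within another annotated gene.

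Levels between genes were compared as reads per kilobase of annotated exon, scaled by library size (RPKM), as means over the 6 libraries. On that scale Hist1h2bg was highest at 197.3 RPKM, followed by Hist1h1c at 92.4, Hist3h2a at 44.7, Hist1h2bc at 44.1, Hist1h4i at 38.4, Hist1h1b at 36.6 and Hist1h3d at 27.1 RPKM. The annotated length differs between these genes mainly by the 3′ end, from a coding sequence alone to a stretch of several kilobases, so the order rests on the annotation. H2A and H2B genes often lie head to head over a shared promoter, and 12 such pairs are annotated, 9 of them with both genes over the minimum. The H2B gene had the higher RPKM in 8 of those 9 pairs, the exception being Hist1h2ad with Hist1h2bf. The gap was widest for Hist1h2ae and Hist1h2bg, at 22.4 and 197.3 RPKM, whose starts lie 175 bases apart. In all 9 pairs part of the H2A exon bases lies in another annotated gene, from 9.91% (Hist1h2ac) to 35.9% (Hist1h2an). None of the paired H2B exon bases do. Ambiguous reads are in no gene's count, and the part of this overlap in the H2A and H2B levels was not tested.

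**Figure D3:**
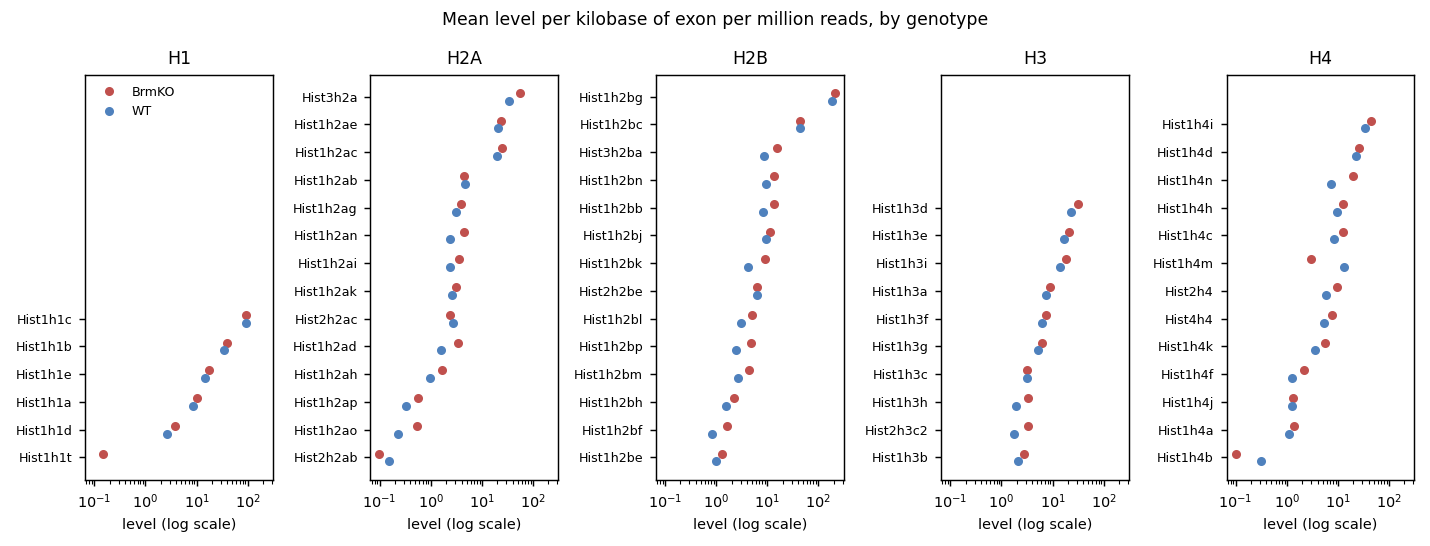
Mean level of each of the 57 histone genes in RPKM on a log axis, in a panel per type, with 1 point for BrmKO and 1 for WT (n = 3 libraries each). Hist1h2bg and Hist1h1c stand highest, and the BrmKO and WT points of Hist1h4m and Hist1h4n lie in opposite order. Hist1h1t has no WT point because it had 0 reads there.

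Hist1h4m fell and its near copy stood higher. Hist1h4m had 32, 34 and 46 reads in the BrmKO libraries and 177, 171 and 160 in the WT libraries, that is 1.20 ± 0.134 CPM in BrmKO and 5.25 ± 0.369 CPM in WT (SD, n = 3 each). All 3 BrmKO libraries lay far below all 3 WT libraries. The log2 fold change of -2.13 ± 0.27 (SE) passed with edgeR at an adjusted p of 0.0228. It no longer passed when BrmKO replicate 1 (edgeR, adjusted p = 0.132), BrmKO replicate 2 (0.103), WT replicate 1 (0.108) or WT replicate 2 (0.153) was left out, nor without both libraries numbered 3 (0.0684). The log2 fold change itself stayed between -2.22 and -2.05 with any library left out.

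Hist1h4n had 222, 225 and 347 reads in the BrmKO libraries and 92, 94 and 116 in the WT libraries, or 8.44 ± 1.43 CPM in BrmKO and 3.17 ± 0.805 CPM in WT (SD, n = 3 each). Every BrmKO library lay above every WT library. The log2 fold change was 1.42 ± 0.26 and did not pass (edgeR, adjusted p = 0.114), although it did with DESeq2 (0.0001) and with no filter on low counts (edgeR, 0.0261).

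The reads of both genes together did not separate the genotypes. They numbered 254, 259 and 393 in BrmKO and 269, 265 and 276 in WT, or 9.64 ± 1.56 CPM in BrmKO and 8.42 ± 1.16 CPM in WT (SD, n = 3 each; exact permutation test, two-sided p = 0.4). With the pair summed as 1 feature in the fit across all genes, the log2 fold change was 0.20 ± 0.20 (edgeR, adjusted p = 0.999), and no histone gene was then called. The division of those reads between the genes did separate them. Hist1h4m held 12.6%, 13.1% and 11.7% of the reads of both in BrmKO, against 65.8%, 64.5% and 58.0% in WT (exact permutation test, two-sided p = 0.1, the smallest that 3 against 3 allow). The 95% Wilson intervals of the nearest libraries, 9.55% to 17.8% in BrmKO replicate 2 and 52.1% to 63.7% in WT replicate 3, leave a wide gap, and they cover counting error only. Because the transcripts differ at G36A and at the 3′ end alone, and the counts hold no sequence, a change in the level of either transcript and a change in which copy the reads match cannot be told apart.

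**Figure D4:**
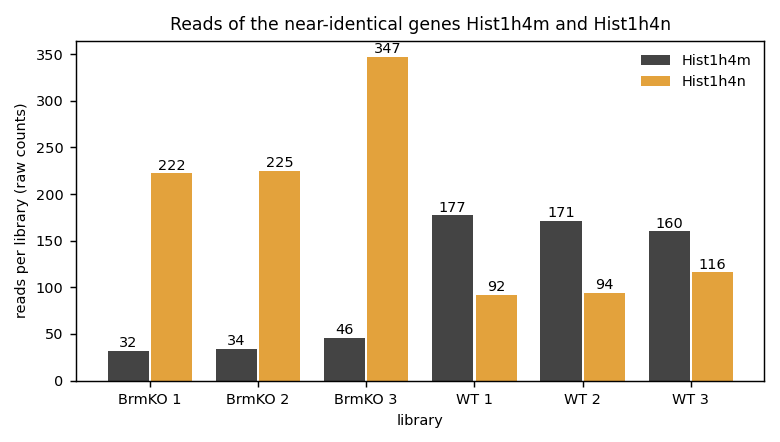
Raw reads per library of Hist1h4m (dark bars) and Hist1h4n (light bars) in the 3 BrmKO and 3 WT libraries. Hist1h4m has 32 to 46 reads in BrmKO and 160 to 177 in WT, while Hist1h4n has 222 to 347 reads in BrmKO and 92 to 116 in WT.

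Among the other H4 genes, which encode the same protein, 10 were tested and all lay above 0 without passing. Hist1h4i had 31.6, 28.8 and 34.6 CPM in BrmKO and 22.9, 23.2 and 26.5 CPM in WT, and the groups did not overlap. The log2 fold change of 0.39 ± 0.12 did not pass (edgeR, adjusted p = 0.603), and it was also 0.39 without both libraries numbered 3. Hist1h4d stood at 28.8 ± 3.38 CPM in BrmKO and 26.2 ± 4.32 CPM in WT. Hist1h4c, whose groups were also apart, stood at 10.3 ± 2.20 CPM in BrmKO and 6.97 ± 0.639 CPM in WT (SD, n = 3 each; log2 fold change 0.57 ± 0.21, adjusted p = 0.725). Hist1h4b had 4 reads in BrmKO and 12 in WT and was not tested.

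The H2B genes had the highest median of the types. All 14 were tested, all lay above 0, and the median log2 fold change was 0.63. Every BrmKO value lay above every WT value for 6 of them (42.9%), against 5.7% of all genes. A higher level with an unadjusted p under 0.05 was found for 4 (28.6%), against 3.14% of all genes, and none passed with edgeR. Hist1h2bk had 3.17, 3.65 and 5.98 CPM in BrmKO and 2.48, 1.84 and 1.76 CPM in WT, with no overlap, a log2 fold change of 1.07 ± 0.33 (edgeR, adjusted p = 0.568). Hist1h2bb, also apart, had 4.88, 7.87 and 7.49 CPM in BrmKO and 4.28, 3.50 and 4.71 CPM in WT (0.70 ± 0.26, adjusted p = 0.746). These are genes of low level, and the abundant H2B genes lay nearer to 0. Hist1h2bg had 104.1, 112.6 and 178.1 CPM in BrmKO and 110.0, 110.2 and 116.4 CPM in WT, so that BrmKO replicate 3 alone lay above the WT libraries by a wide margin. Its log2 fold change of 0.23 ± 0.18 became -0.05 without that library. Hist1h2bc, at 51.6 ± 8.70 CPM in BrmKO and 50.3 ± 10.6 CPM in WT (SD, n = 3 each), had a log2 fold change of 0.04 ± 0.17.

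Of the 14 H2A genes 11 were tested, with 9 above 0, a median of 0.37 and none past the edgeR test. A higher level with an unadjusted p under 0.05 was found for 1 (9.09%), against 3.14% of all genes. Hist3h2a, the most abundant of them, had 85.0, 88.0 and 179.3 CPM in BrmKO and 64.8, 64.9 and 93.4 CPM in WT. BrmKO replicate 3 was highest there and WT replicate 3 overlapped the BrmKO range (log2 fold change 0.66 ± 0.31, edgeR, adjusted p = 0.874; 0.42 without both libraries numbered 3). Hist1h2ac had 39.5, 37.1 and 105.1 CPM in BrmKO and 38.7, 36.7 and 70.0 CPM in WT. In both genotypes replicate 3 was the high library for Hist1h2ac, and its log2 fold change of 0.32 ± 0.50 became -0.34 without BrmKO replicate 3. Hist1h2ad was apart between the groups, with 1.40, 1.22 and 3.19 CPM in BrmKO and 0.855, 0.799 and 1.02 CPM in WT (1.12 ± 0.46, adjusted p = 0.795). Its coding sequence is more than 99% identical to those of Hist1h2ae, Hist1h2ag, Hist1h2ao and Hist1h2ap. Hist1h2ae, the most abundant of that group, stood at 16.8 ± 4.49 CPM in BrmKO and 14.8 ± 2.92 CPM in WT (0.19 ± 0.22), and Hist1h2ag had 0.37 ± 0.35. Hist1h2an stood at 0.86 ± 0.49 with BrmKO replicate 3 highest.

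Hist1h2ao and Hist1h2ap are neighbours of Hist1h4m and Hist1h4n in the same inverted arrangement. Their transcripts match over 452 aligned bases with 0 differences. They had 23 and 25 reads in BrmKO and 11 and 16 in WT, too few to be tested apart. Summed as 1 feature, they had a log2 fold change of 0.95 ± 0.61 (edgeR, adjusted p = 0.973).

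All 10 H3 genes were tested and lay above 0, with a median of 0.35 and none past the edgeR test. A higher level with an unadjusted p under 0.05 was found for 1 (10%), against 3.14% of all genes. Hist1h3d, the H3 gene with the highest RPKM, had 19.7, 28.7 and 67.3 CPM in BrmKO and 20.9, 19.2 and 47.4 CPM in WT, and Hist1h3e had 12.1, 11.7 and 29.1 CPM in BrmKO and 11.8, 12.3 and 18.1 CPM in WT. Replicate 3 was the highest of its genotype for both, and their log2 fold changes were 0.41 ± 0.58 and 0.33 ± 0.35, or -0.27 and -0.24 without BrmKO replicate 3. Hist1h3i, Hist1h3h and Hist1h3g were apart between the groups with smaller spread. Hist1h3i had 7.48, 6.89 and 8.54 CPM in BrmKO and 6.81, 4.70 and 5.30 CPM in WT (0.45 ± 0.22, edgeR, adjusted p = 0.879). The coding sequences of Hist1h3h and Hist1h3i are over 99% identical to each other, as are those of Hist1h3g and Hist1h3h.

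Linker histone H1 genes differ most in sequence, at 62.6% to 83.9% identity between coding sequences, and are the least alike of the types. Of 6, 5 were tested and 4 lay above 0, with a median of 0.26 and none past the edgeR test. A higher level with an unadjusted p under 0.05 was found for 1 (20%), against 3.14% of all genes. Hist1h1d had 26.3, 24.0 and 33.2 CPM in BrmKO and 19.1, 20.01 and 20.1 CPM in WT, with no overlap (0.50 ± 0.14, edgeR, adjusted p = 0.520). It was 0.36 without both libraries numbered 3. Hist1h1c, the most abundant histone gene by reads, had 192.8, 120.7 and 114.7 CPM in BrmKO and 184.9, 186.7 and 65.1 CPM in WT. WT replicate 3 was the lowest library, and the log2 fold change was -0.03 ± 0.44. Hist1h1b stood at 29.3 ± 1.75 CPM in BrmKO and 25.1 ± 2.20 CPM in WT (0.22 ± 0.12), and Hist1h1e, 25.7% of whose exon bases lie in another gene, at 34.3 ± 9.11 CPM in BrmKO and 28.4 ± 2.18 CPM in WT (0.27 ± 0.18). Hist1h1t, the testis linker histone, had 6, 1 and 6 reads in BrmKO and 0 in each WT library, too few to be tested.

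**Figure D5:**
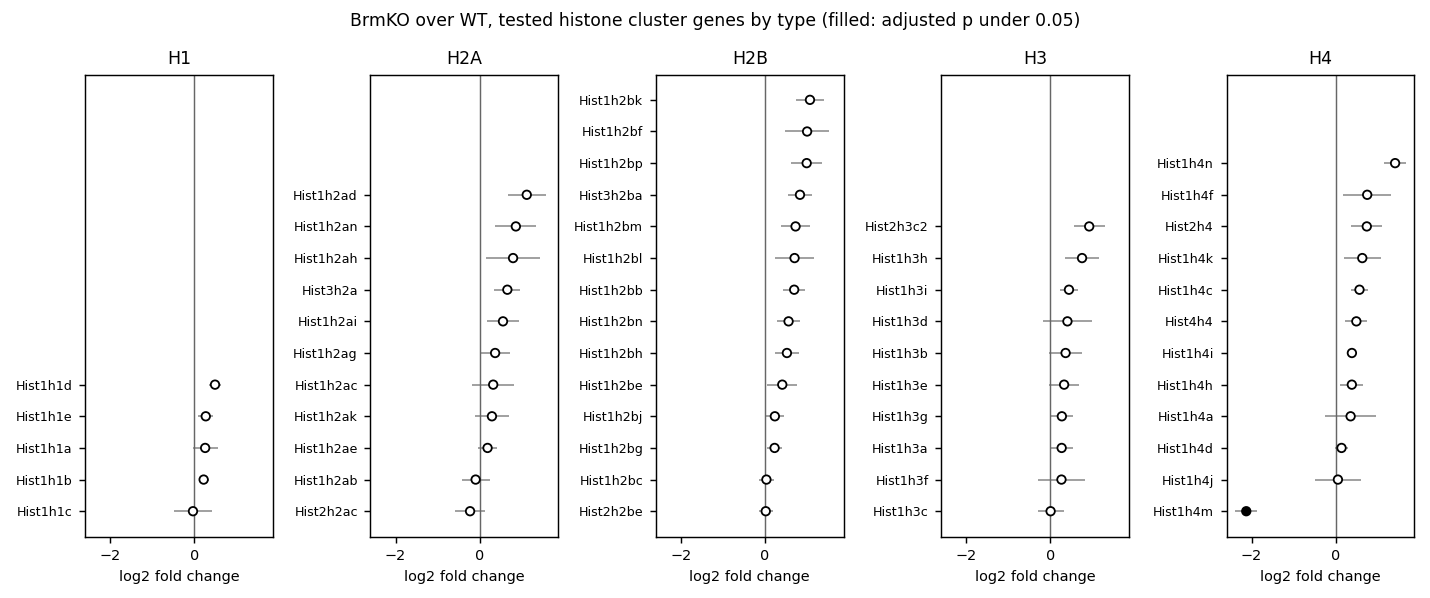
Log2 fold change (BrmKO over WT, with SE bars) of each of the 52 tested histone genes, in a panel per type, filled where the adjusted p was under 0.05. Hist1h4m at -2.13 is the single gene past the test, and 48 of the 52 lie to the right of 0.

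By cluster, log2 fold changes of the 45 tested Hist1 genes had a median of 0.39, with 42 above 0. They lie on chromosome 13 between 21715763 and 23764406, and the 10 other tested genes in that interval had a median of 0.00, with 5 above 0 and a smallest adjusted p of 0.913 (edgeR). The Hist2 genes lie on chromosome 3 between 96219865 and 96263311, and 3 of the 4 tested lay above 0, with a median of 0.38. The 2 other tested genes in that interval are antisense genes overlapping Hist2 exons, and both lay above 0, with a median of 0.96 and a smallest adjusted p of 0.562 (edgeR). Hist2h3c2 had 1.97, 3.27 and 4.82 CPM in BrmKO and 2.10, 1.51 and 1.69 CPM in WT (0.93 ± 0.37, edgeR, adjusted p = 0.795), and BrmKO replicate 1 overlapped WT. Hist2h4 had 12.5, 8.04 and 26.9 CPM in BrmKO and 9.38, 8.91 and 10.1 CPM in WT (0.74 ± 0.37, or 0.17 without both libraries numbered 3). Hist2h2be and Hist2h2ac, which share a promoter, had log2 fold changes of 0.02 ± 0.16 and -0.23 ± 0.36. Hist2h2ab had 4 reads in BrmKO and 6 in WT and was not tested.

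The Hist3 genes on chromosome 11 (58948920 to 58956830) are Hist3h2a, above, and Hist3h2ba, with 12.1, 5.92 and 10.3 CPM in BrmKO and 4.83, 6.55 and 4.46 CPM in WT (0.84 ± 0.29, edgeR, adjusted p = 0.694). BrmKO replicate 2 overlapped the WT values. Hist4h4 on chromosome 6, the single gene of its cluster, had 14.8, 18.0 and 32.6 CPM in BrmKO and 15.7, 14.6 and 16.2 CPM in WT (0.49 ± 0.26, adjusted p = 0.913; 0.11 without both libraries numbered 3).

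The promoters were searched on both strands for letters known from histone promoters, in 300 bases from the RefSeq table (GRCm38.p6), which matched 52 of the 57 genes. CCAAT stood in the promoters of all 6 H1, 14 H2A, 12 H2B and 8 H3 genes matched and in 3 of 12 H4 promoters, against 37.4% of all 32851 promoters. TATAAA stood in 32 of 52 (61.5%), against 13.6% of all. The octamer ATTTGCAT, known from H2B promoters, stood in 6 of 14 H2A and 4 of 12 H2B promoters, in none of the H1, H3 and H4 promoters, and in 1.74% of all. Head-to-head genes such as Hist1h2ae with Hist1h2bg, and Hist1h2ah with Hist1h2bk, were searched over largely the same bases. The H2A and H2B counts are therefore not separate.

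No gene that works with the cluster genes was called, and none of these lists' genes had an unadjusted p under 0.05 (edgeR). Of 20 genes for histone mRNA synthesis and processing, 8 lay above 0, and the median was -0.03. The smallest p among these 20 belonged to Xrn1 (log2 fold change -0.20 ± 0.13, edgeR, adjusted p = 0.981). Upf1 had the most reads, at 307.1 ± 34.9 CPM in BrmKO and 291.6 ± 29.9 CPM in WT (SD, n = 3 each). Slbp, the stem-loop binding protein, stood at 206.2 ± 13.3 CPM in BrmKO and 206.1 ± 23.2 CPM in WT, and Npat, the coactivator of histone gene transcription in S phase, at 69.7 ± 2.95 CPM in BrmKO and 71.9 ± 5.37 CPM in WT (SD, n = 3 each). Of 19 histone chaperones 11 lay above 0 with a median of 0.03. The smallest p among them belonged to Supt16, a subunit of FACT, at 87.3 ± 1.91 CPM in BrmKO and 75.7 ± 9.87 CPM in WT (0.21 ± 0.11, edgeR, adjusted p = 0.902).

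The histone variants listed as replication-independent lay around 0 as a list. Of 11 tested, 4 lay above 0 and the median was -0.03. H1fx, a linker variant, had the highest log2 fold change of them (0.56 ± 0.28, edgeR, adjusted p = 0.878). It stood at 4.92 ± 1.30 CPM in BrmKO and 3.32 ± 0.483 CPM in WT, with no overlap between the groups (SD, n = 3 each). H3f3b, a gene for the H3.3 variant, stood at 2987 ± 451 CPM in BrmKO and 3172 ± 1110 CPM in WT, and H2afx, the variant phosphorylated at DNA breaks, at 221 ± 33.2 CPM in BrmKO and 187.2 ± 5.07 CPM in WT (SD, n = 3 each; log2 fold change 0.24 ± 0.11, edgeR, adjusted p = 0.871). The 31 S phase genes had 23 above 0 and a median of 0.07. In neither list did a gene pass the edgeR test or reach an unadjusted p under 0.05. Cdc6, which loads the replicative helicase, stood at 153.5 ± 5.84 CPM in BrmKO and 135.8 ± 3.17 CPM in WT (0.18 ± 0.08, adjusted p = 0.841). Summed, the S phase genes gave 8990, 9283 and 7989 CPM in BrmKO and 8860, 8663 and 7762 CPM in WT, so BrmKO replicate 3, the library highest for most histone genes, was the lowest BrmKO library for them.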

How the data were processed

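The authors deposited a table of raw read counts per Ensembl gene for each library, with no normalisation. STAR, HTSeq, FastQC, bcl2fastq and DESeq2, and the build GRCm38, are named per the submitters' processing notes. The sources used here give no versions, strand setting or annotation release. Per the labels' protocols, libraries came from sorted cells with a SMART-Seq v4 kit, which does not mark strand and has no molecular identifiers. Intervals and floors therefore cover counting error alone. The 5 rows that name no gene were left out of library sizes (reads outside genes 5.79% to 9.29%, ambiguous 6.24% to 6.47%, not unique 4.38% to 5.27%, not aligned 1.99% to 2.48%, low quality under 0.00369%). Reads in genes numbered 28.01 to 36.46 M, and a count of 0 allows up to 0.0823 to 0.107 CPM (3 counts).

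Symbols, biotypes and transcripts came from GENCODE M21, matched for 55227 of 55487 genes. BrmKO was compared with WT by edgeR's quasi-likelihood test (edgeR 4.0.16, R 4.3.3; robust, TMM, filterByExpr, no covariate), with Benjamini-Hochberg adjustment over 15691 genes and a threshold of 0.05. CPM are on TMM-scaled sizes, log2 fold changes are BrmKO over WT ± SE, and single values were tested by exact permutation. The 3 mice of each genotype are separate animals by the study's design text. Every pair of libraries differed by more than sampling noise (chi-square over its degrees of freedom at least 14.34). DESeq2 1.42.0, limma-voom (limma 3.58.1), other scalings, no filter, a replicate block, and leaving out each library were alternatives. Leaving out both libraries numbered 3, and summing near-identical genes, were added after seeing the data.

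The genes and lists were chosen with earlier results of these data known. Named were Hist1h4m, Hist1h4n and Smarca2, per histone type the 3 smallest p-values, the 3 highest RPKM and all called, the Hist2 to Hist4 genes, and near-identical partners of a named gene. From each other list, genes were taken from the smallest p-values and the most abundant. Slbp and Npat fall outside that rule. Hist1h4c, Hist1h4b, Hist1h1t, Pdgfra, Col1a1, Nkg7, Ncr1, Hba-a1, Ltf, Ngp, S100a8, Mpo, Elane and the genes at the minimum were named after their values were seen. So was Pf4.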

Additional observations from a re-analysis of the deposited data

How the results depend on the processing

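The number of genes called over the whole table was 22 and changed to 150 with DESeq2, 58 with no filter on low counts, and 6 to 36 with each library left out (leaving out BrmKO replicate 1 gave 9, and leaving out WT replicates 1, 2 and 3 in turn gave 7, 6 and 36). Of the histone genes 1 was called, against 2 with DESeq2 and with no filter, 0 to 1 with each library left out (0 without replicate 1 or 2 of either genotype), and 0 without both libraries numbered 3 or with near-identical genes summed. With the replicate block, 25 genes and 1 histone gene were called and the histone median was 0.40. Same-numbered libraries had deviations correlated at 0.0518, 0.00775 and 0.194, and BrmKO replicate 1 correlated better with WT replicate 2 (0.168), so the numbers were not taken to pair the mice. Among uncalled genes, directions turned as follows on the log2 scale. Hist1h1c (-0.03) became 0.0726 with limma-voom and 0.0766 with the block, and ranged from -0.38 to 0.19 with each library left out. The ranges with each library left out were -0.0490 to 0.365 for Hist1h2ae, -0.34 to 0.68 for Hist1h2ac, -0.0516 to 0.378 for Hist1h2bg, -0.0849 to 0.216 for Hist1h2bc, -0.0849 to 0.177 for Hist2h2be, -0.24 to 0.55 for Hist1h3e and -0.27 to 0.95 for Hist1h3d. Without both libraries numbered 3, the values were -0.12 for Hist1h2ae, -0.0229 for Hist1h2bg, -0.10 for Hist1h2bc, -0.0318 for Hist2h2be and -0.0184 for Hist1h3e. The cause was not tested. Over the named genes' alternatives, 348 values kept direction and side of the threshold, 5 fell short of it, 2 passed it and 22 turned. The histone median stayed above 0 in every alternative run, between 0.20 and 0.55. Depth limits the 5 histone genes with under 100 reads most.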

Other observations

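The 3 annotated pseudogenes with histone cluster symbols, which are not protein coding, held reads as well. Hist1h2al, a processed pseudogene on chromosome 13 (51202727 to 51203065) outside the Hist1 interval, had 25, 21 and 86 reads in BrmKO and 0, 1 and 1 in WT, a ratio of 68.9 of the summed levels with a 95% counting interval of 18.7 to 575 (edgeR, adjusted p = 0.0732). That interval pools the libraries of each genotype and leaves out the spread between mice. Other genes share 67.6% of the 50-base windows of Hist1h2al, Gm20632 the most, and 32% of its exon bases lie in another annotated gene. The part of this sharing in the ratio was not tested. Hist3h2bb-ps, in the Hist3 cluster, had 77, 103 and 149 reads in BrmKO and 37, 46 and 38 in WT, or 3.50 ± 0.881 CPM in BrmKO and 1.26 ± 0.208 CPM in WT (SD, n = 3 each; log2 fold change 1.48 ± 0.33, edgeR, adjusted p = 0.238). For Hist1h2al and Hist3h2bb-ps every BrmKO library lay above every WT library, as for 5.7% of all tested genes. Hist1h2aj, inside the Hist1 interval, overlapped between the genotypes (102 reads in BrmKO and 80 in WT; log2 fold change 0.37 ± 0.43, edgeR, adjusted p = 0.999). None of the 3 passed with edgeR, and 2 were higher with an unadjusted p under 0.05, against 3.14% of all tested genes. All 3 were named after their values were seen.

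Gm20632, an antisense gene of the Hist2 cluster that overlaps Hist2h2aa2, had 176, 169 and 523 reads in BrmKO and 147, 138 and 84 in WT (log2 fold change 1.26 ± 0.38, edgeR, adjusted p = 0.562). Hist2h2aa2 itself had no read, and without strand the reads of the 2 genes cannot be told apart. Gm20632 was named after its values were seen.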
